A study of Homo sapiens with 4 samples.

Results

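Close pairs of genes that follow each other on the same strand, the layout of COMMD3 and BMI1, were examined for RNA polymerase II (Pol II) in the gap between them. A pair was kept when 2 neighbouring protein-coding genes of GENCODE release 44 lay on the same strand of chromosomes 1 to 22 or X and the transcription start site (TSS) of the downstream gene lay 1 to 2000 bp past the annotated end of the upstream gene. This rule, which used gene positions and no measured value, gave 1021 gaps out of 2555 gaps of this size in any orientation. The others were 836 divergent gaps, which lie between 2 starts, and 698 convergent gaps, which lie between 2 ends. The same-strand gaps were 10 to 1996 bp long with a median of 926 bp, and their pairs held 1876 genes, 166 of which belonged to 2 pairs.

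Pol II ChIP-seq, which sequences the DNA that is precipitated together with the polymerase, had been carried out in SK-OV-3, an established human ovarian cancer line. Cells stably carried a lentiviral short hairpin RNA against RRN3 (shRRN3) or against the bacterial gene LacZ (shLacZ, the control). Each hairpin had 1 Pol II library, analysed here as a list of peaks, and 1 input library, not analysed here. RRN3 is an initiation factor of RNA polymerase I, and the study asked whether its loss changes how Pol II transcription ends, with COMMD3 and BMI1 as its model pair. On the chromosomes used, shLacZ had 3916 peaks and shRRN3 had 14321. With 1 library per hairpin there is no replicate error to judge a difference by, the depth behind the lists is unknown, and the labels do not state which RRN3 hairpin was used. The TSS of RRN3 had no peak in either list, and the lists do not check the knockdown. Among 9 genes chosen for an epithelial ovarian cancer line, PAX8 and VIM had a TSS peak in shLacZ. In shRRN3 these 2 had one, and so did KRT8, KRT18 and EPCAM. ERBB2, KRT7, WT1 and MUC16 had none in either list, and neither did 5 genes of blood, vessel and liver cells.

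Transcription of a protein-coding gene ends after the nascent RNA is cut at a poly(A) signal. Pol II then runs on past the cut before it is released, and where release fails it can enter the next gene on the same strand and yield a joined readthrough transcript. In a close same-strand pair the gap therefore lies both past the end of the upstream gene and before the start of the downstream gene. Neither termination nor the promoter need be confined to it. A ChIP-seq peak in the gap does not tell which of the genes the polymerase serves. COMMD3 encodes a member of the COMMD family of adaptor proteins, and BMI1 is a subunit of a Polycomb repressive complex.

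The 200 bases before the downstream TSS are shown for 5 of these gaps, chosen to cover the different outcomes described below. They are written 5′ to 3′ in the direction of transcription from the GRCh38 genome, in lower case, with capitals for motif letters found on either strand. The motifs searched were TATAAA, which is the core of a box that sets the start site, CCAAT, which binds the factor NF-Y, and GGGCGG, which is the core of a GC box. The gaps before BMI1 and KDM5C had a peak in shLacZ only, those before DNAJC9 and H2BC5 in both lists, and that before ATF4 in shRRN3 only.
BMI1, chr10:22320899-22321098, plus strand: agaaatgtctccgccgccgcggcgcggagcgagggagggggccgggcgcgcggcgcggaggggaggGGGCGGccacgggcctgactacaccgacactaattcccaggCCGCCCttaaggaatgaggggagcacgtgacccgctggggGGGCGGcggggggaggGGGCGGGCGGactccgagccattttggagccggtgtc
KDM5C, chrX:53225423-53225622, minus strand: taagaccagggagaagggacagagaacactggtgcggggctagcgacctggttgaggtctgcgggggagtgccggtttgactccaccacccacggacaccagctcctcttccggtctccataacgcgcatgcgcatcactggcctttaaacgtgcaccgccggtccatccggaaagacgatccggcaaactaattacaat
DNAJC9, chr10:73247256-73247455, minus strand: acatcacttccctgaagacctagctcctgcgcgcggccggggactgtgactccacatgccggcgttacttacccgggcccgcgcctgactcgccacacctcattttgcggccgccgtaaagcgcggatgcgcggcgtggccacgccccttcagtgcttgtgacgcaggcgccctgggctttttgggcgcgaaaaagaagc
H2BC5, chr6:26157922-26158121, plus strand: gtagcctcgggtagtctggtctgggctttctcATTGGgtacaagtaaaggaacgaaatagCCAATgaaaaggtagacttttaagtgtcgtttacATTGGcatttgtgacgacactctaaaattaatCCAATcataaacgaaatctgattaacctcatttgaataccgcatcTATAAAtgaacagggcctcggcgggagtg
ATF4, chr22:39519495-39519694, plus strand: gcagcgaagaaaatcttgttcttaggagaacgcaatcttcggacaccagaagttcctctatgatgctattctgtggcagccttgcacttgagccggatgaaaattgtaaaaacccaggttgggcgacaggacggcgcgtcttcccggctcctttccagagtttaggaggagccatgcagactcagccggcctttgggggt
In the BMI1 stretch 74.5% of bases were G or C, and GGGCGG occurred 5 times, with the last 2 matches overlapping. The shLacZ peak covered 183 of these 200 bases. The H2BC5 stretch, before a histone gene, held TATAAA 29 bases before the TSS and CCAAT 4 times, and the KDM5C, DNAJC9 and ATF4 stretches held none of the motifs. The DNAJC9 stretch overlaps exons of 2 long noncoding RNA genes and the H2BC5 stretch an unverified transcript, while the other 3 overlap no annotated exon.

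The ends of the upstream genes in 3 of these pairs are shown because they carry the poly(A) signal, AATAAA or ATTAAA, which is in capitals within 30 bases.
COMMD3, chr10:22320268-22320297, plus strand: tattacaccctgAATAAAtaaggtgttgtt
IQSEC2, chrX:53225828-53225857, minus strand: ctctctacctgtaaccttggatgaAATAAA
MRPS16, chr10:73248856-73248885, minus strand: aatttgagttgcAATAAAaggatatttcag
The signal began 26 bases before the last annotated base of COMMD3, 5 bases before that of IQSEC2 and 30 bases before that of MRPS16. AATAAA or ATTAAA lay in the last 50 bases of 766 of the 1021 upstream genes (75.02%), against 73.3% of all 19319 protein-coding genes. The share was 72.3% for the 65 gaps with a peak in both lists, 72.4% for the 174 with a peak in shRRN3 only and 75.6% for the 769 with a peak in neither. Of the 13 gaps with a peak in shLacZ only, 12 followed such an end. A match of letters is a description and does not show that the signal is used.

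A peak was counted in a gap when the peak and the gap shared at least 1 base. In shLacZ 78 of the 1021 gaps had a peak, or 7.64% (95% interval 6.09% to 9.44%), against 7.32% of gaps in any orientation. In shRRN3 239 gaps had a peak, or 23.4% (20.8% to 26.1%), against 25.1%. The shRRN3 share was 15.8 percentage points higher (14.1 to 16.9), a ratio of 3.06, and the same ratio was 3.17 at the TSSs of all protein-coding genes, where 7.73% had a peak within 1 kb in shLacZ and 24.5% in shRRN3. With only the 3916 shRRN3 peaks of highest score, as many as shLacZ had, the share was 10.6% and the difference 2.94 points. Intervals here are exact binomial (Clopper-Pearson) for shares, Newcombe for differences of shares and exact conditional for the paired difference between the lists. They cover counting error only, treat neighbouring gaps as independent, and compare these libraries and not the conditions.

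Peaks were present in both lists in 65 gaps, in shLacZ only in 13, in shRRN3 only in 174 and in neither in 769. A peak in shLacZ only was found in 0.822% of gaps in any orientation and a peak in shRRN3 only in 18.6%. Of the 78 gaps with a shLacZ peak, 83.3% (73.2% to 90.8%) also had one in shRRN3. With the reduced shRRN3 list this was 57.7% and gaps with a peak in shLacZ only numbered 33, and with both lists limited to scores of at least 65.6 the latter numbered 5. The same share was 92.2% (85.3% to 96.6%) for the 103 divergent gaps with a shLacZ peak and 86.5% (84.7% to 88.2%) for all TSSs, so its interval overlapped both. Peaks covered 2.18% of the 974920 bases in the gaps in shLacZ and 9.29% in shRRN3. Just inside the limit on distance, at 1801 to 2000 bp, 3 of 88 gaps had a shLacZ peak and 21 a shRRN3 peak, and just outside it, at 2001 to 2200 bp, these were 4 and 16 of 84.

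**Figure D1:**
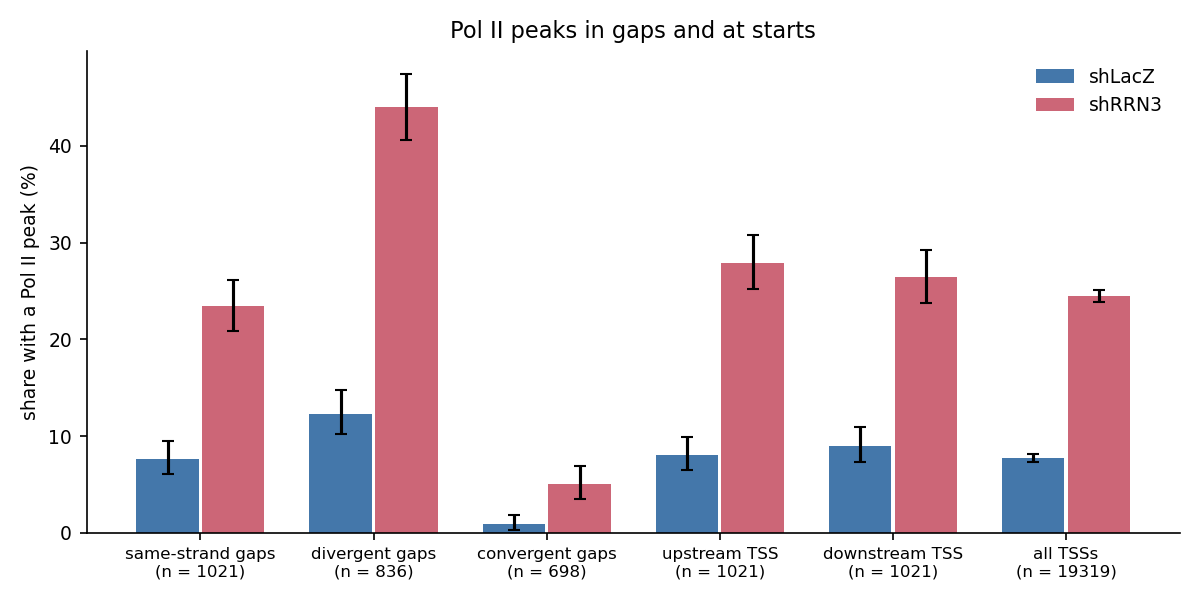
Share of gaps or TSSs with a Pol II peak (y axis, percent) in shLacZ and shRRN3, for gaps of 3 orientations, for both TSSs of the same-strand pairs (peak within 1 kb) and for all protein-coding TSSs. Bars are 1 library each and error bars are 95% exact binomial intervals; same-strand gaps, at 7.64% and 23.4%, lay between divergent and convergent gaps in both lists.

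The shares were compared by orientation next. Divergent gaps, which hold a pair of promoters, had a peak in 12.3% in shLacZ and 44.02% in shRRN3. Convergent gaps, which hold no promoter of the pair, had one in 0.860% and 5.01%. Same-strand minus divergent gaps gave -4.68 points in shLacZ (-7.50 to -1.95) and -20.6 points in shRRN3 (-24.8 to -16.3), so the same-strand share was the lower one in both. Same-strand gaps were 6.78 points above convergent gaps in shLacZ (4.996 to 8.63) and 18.4 points above in shRRN3 (15.3 to 21.4). Divergent gaps were shorter, with a median of 142 bp, and convergent gaps had a median of 700.5 bp. Among gaps of over 1000 bp the shLacZ shares were 7.49% for 467 same-strand gaps, 12.3% for 65 divergent and 0 of 241 convergent gaps, which allows a share of up to 1.52%. In shRRN3 they were 23.3%, 30.8% and 4.56%. Where the midpoint of the peak had to lie inside the gap, the difference from divergent gaps became 0.514 points in shLacZ (-1.20 to 2.17) and -1.78 points in shRRN3 (-4.99 to 1.35). The highest-scoring peaks of same-strand gaps had a median width of 558 bp in shLacZ and 722 bp in shRRN3. A midpoint falls inside a short gap less often by construction, so this setting does not compare the orientations on equal terms.

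Within the same-strand gaps the share did not follow length in one direction. Gaps of up to 250 bp had a peak in 13 of 129 in shLacZ and 39 of 129 in shRRN3, those over 250 and up to 500 bp in 6 and 24 of 161, those over 500 and up to 1000 bp in 24 and 67 of 264, and longer ones in 35 and 109 of 467. The lowest share in both lists was thus that of gaps over 250 and up to 500 bp, with 3.73% (1.38% to 7.93%) and 14.9% (9.79% to 21.4%).

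Next, the gap was set beside both starts of its pair. The upstream TSS had a peak within 1 kb in 82 pairs in shLacZ (8.03%, 6.44% to 9.87%) and 285 in shRRN3 (27.9%, 25.2% to 30.8%). The downstream TSS had one in 92 (9.01%, 7.33% to 10.9%) and 270 (26.4%, 23.8% to 29.3%). Every gap with a peak also had a peak within 1 kb of its downstream TSS. Below 1000 bp the geometry forces this, but it also held for 35 of 35 gaps with a shLacZ peak and 109 of 109 with a shRRN3 peak among the 467 gaps of 1000 bp or more. The upstream TSS of the pair had a peak as well in 18 of the 78 gaps in shLacZ (23.1%) and in 95 of the 239 in shRRN3 (39.7%). Pairs with a peak at both starts and none in the gap were few, 2 in shLacZ and 17 in shRRN3. In all, 154 pairs (15.1%) had a peak at 1 or more of the 3 places in shLacZ and 443 (43.4%) in shRRN3. Among TSSs with a shLacZ peak, 77 of 82 upstream and 79 of 92 downstream TSSs also had one in shRRN3.

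Peaks in the gaps lay mostly at the downstream start rather than behind the upstream end. In the 467 gaps of 1000 bp or more, the highest-scoring shLacZ peak had its midpoint in the gap and nearer the downstream TSS in 16 of 35, past that TSS in 16 and in the gap nearer the upstream end in 3. In shRRN3 these counts were 68, 38 and 3 of 109. The median midpoint was 16 bp before the downstream TSS in shLacZ and 51 bp before it in shRRN3. Coverage followed the same pattern, with the highest 50 bp bin at 6.48% of pairs in shLacZ, centred 75 bp past the downstream TSS, and at 20.8% in shRRN3, centred 25 bp past it. In the first 50 bp past the upstream end a peak covered 0.428% of pairs in shLacZ and 1.58% in shRRN3.

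**Figure D2:**
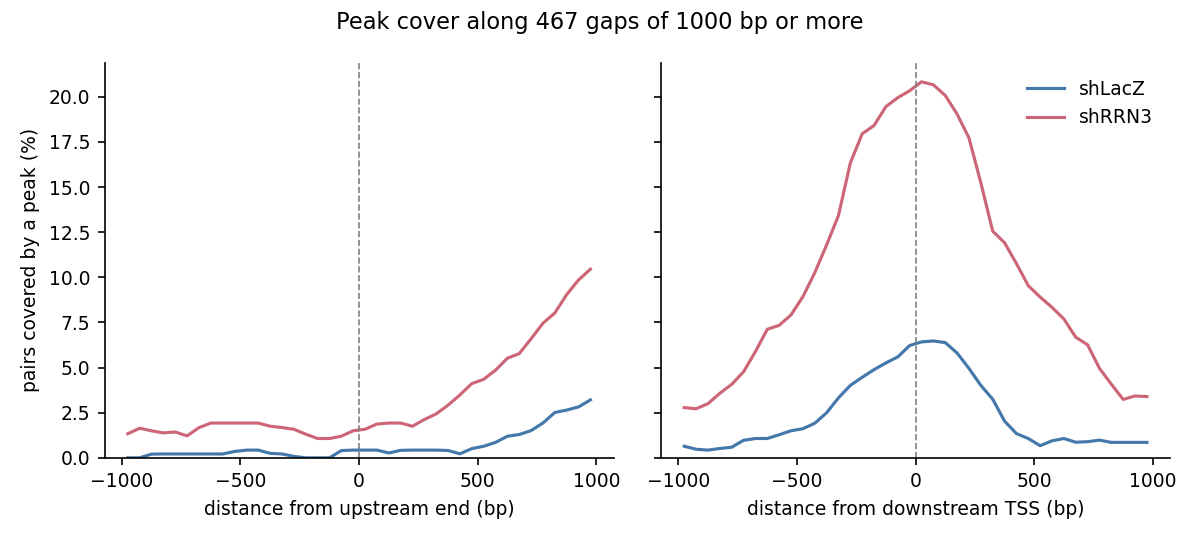
Percent of the 467 pairs with a gap of 1000 bp or more that were covered by a peak (y axis) in 50 bp bins, by distance from the annotated end of the upstream gene (left, x axis in bp) and from the downstream TSS (right). Lines are the shLacZ and shRRN3 lists; cover was highest at the downstream TSS, at 6.48% and 20.8%, and low on both sides of the upstream end.

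The first 500 bp past the upstream end, the stretch next to its poly(A) signal, had a peak in 4 of these 467 gaps in shLacZ (0.857%, 0.234% to 2.18%) and in 21 in shRRN3 (4.50%, 2.80% to 6.79%). The same stretch past 13510 ends with no other protein-coding gene within 2 kb had a peak in 0.459% and 1.52%. Ends in pairs were 0.398 points higher in shLacZ (-0.141 to 1.73) and 2.98 points higher in shRRN3 (1.43 to 5.27). In the 21 shRRN3 gaps, however, a peak of this stretch also reached the downstream TSS in 11 and the upstream end in 7. There were 4 counted in both and 7 in neither. With the peak midpoint required inside the 500 bp, the shRRN3 difference was 0.153 points (-0.392 to 1.48). It was 1.69 points (0.582 to 3.56) with the reduced shRRN3 list. Without stretches near another start it was 1.84 points (0.486 to 4.11). The 4 shLacZ gaps, named here after their values were seen, were H2AC13-H3C10, RAB26-TRAF7, CTDNEP1-GABARAP and DDX5-POLG2, and all 4 also had a shRRN3 peak there. The last 500 bp before the downstream TSS had a peak in 34 gaps in shLacZ (7.28%) and 106 in shRRN3 (22.7%), against 5.35% and 17.2% at 13863 starts with no other protein-coding gene within 2 kb. Starts in pairs were 1.94 points higher in shLacZ (-0.125 to 4.68) and 5.51 points higher in shRRN3 (1.88 to 9.57).

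Over gaps of every length, the highest-scoring peak had its midpoint in the gap and nearer the upstream end in 8 of 78 gaps in shLacZ and 19 of 239 in shRRN3. In gaps of 1000 bp or more, where these counts were 3 and 3, any peak placed in this way was found in 4 of 35 gaps in shLacZ and 8 of 109 in shRRN3. The pairs with a gap of 1000 bp or more in which the highest-scoring peak lay there are named next, chosen after their values were seen. In CTDNEP1-GABARAP, where GABARAP encodes a protein of the ATG8 family that works on autophagosomes, both lists had a peak in the middle of the gap of 1141 bp (chr17:7242450-7243590, minus strand), with scores of 109.28 in shLacZ and 90.23 in shRRN3 and midpoints 637 and 583 bp before the GABARAP TSS. In RPLP0-GCN1, which joins a ribosomal stalk protein and an activator of the stress kinase GCN2 (chr12:120194716-120196698, minus strand), the shLacZ peak had its midpoint 1110 bp before the GCN1 TSS (score 97.63). An overlapping shRRN3 peak had its midpoint 1485 bp before it (score 268.16) and was not the highest-scoring of that gap. In the histone pair H2AC13-H3C10 the midpoints lay 1119 bp before the H3C10 TSS in shLacZ (score 90.54) and 1131 bp before it in shRRN3 (score 167.68, again not the highest-scoring of the gap), in a gap (chr6:27808668-27810050, plus strand) with the start of H2BC13 within 1 kb. With a gap peak in shRRN3 and none in shLacZ, the remaining pairs were CCR10-PLEKHH3 (1291 bp before the TSS, score 84.51) and PDLIM2-C8orf58 (1280 bp before it, score 75.01). The score is the authors' value and was read as -log10(p) of the peak multiplied by 10. It grows with depth. Scores are used to rank peaks within a list and, in 1 alternative, to filter both lists. They are printed for both lists, but a higher score in 1 list is not read as more Pol II.

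COMMD3-BMI1 was among the 13 gaps with a peak in shLacZ only. Its gap is chr10:22320307-22321098 on the plus strand of GRCh38, 792 bp with 73.5% G or C, and no other annotated gene starts within 1 kb of it. In shLacZ 1 peak of 345 bp, at 22320737 to 22321081, covered 43.6% of the gap with a score of 131.29, and it lay 362 to 18 bp before the BMI1 TSS. In shRRN3 neither the gap nor the 1 kb around the BMI1 TSS had a peak. The COMMD3 TSS had peaks in both lists, with scores of 64.14 and 64.55 in shLacZ and of 77.56 and 56.38 in shRRN3, the nearest of which ended 3305 bp before the gap. The pair therefore had a called peak at its upstream start in both lists and in its gap in shLacZ only. The lists do not tell whether Pol II lay in this gap below the threshold in shRRN3. Among the 78 shLacZ gaps the score of 131.29 ranked 11, and all 10 gaps that scored higher also had a peak in shRRN3.

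The other 12 gaps of this kind had scores of 50.96 to 79.28, on both sides of the median of 65.6 for the whole shLacZ list. They included USP54-PPP3CB (79.28), ZMYM6-TMEM35B (70.91), IQSEC2-KDM5C (65.15), C8orf58-CCAR2 (63.63), ZDHHC4-INTS15 (62.53), PACS2-TEX22 (62.36), POLR3C-NUDT17 (57.7) and ECSIT-ZNF653 (57.57). PPP3CB encodes a catalytic subunit of the phosphatase calcineurin and KDM5C a histone H3 lysine demethylase. At USP54-PPP3CB the shRRN3 list had a peak within 1 kb of the downstream TSS, 220 bp from the gap. Over the 13 pairs the downstream TSS had a shRRN3 peak in 2, and COMMD3-BMI1 was not among them. The upstream TSS had a shRRN3 peak in 6 of the 13 pairs, and 7 had one at neither start. The median score of these 13 peaks was 62.5, against 87.6 for the shLacZ peaks of gaps with a peak in both lists and 65.6 for the whole shLacZ list.

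**Figure D3:**
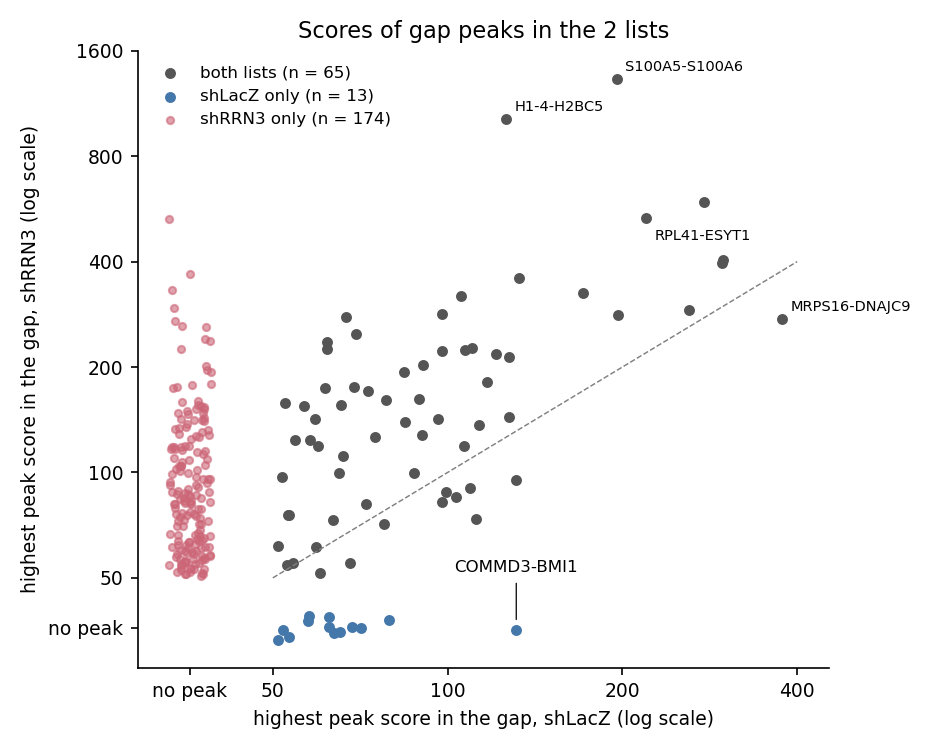
Highest peak score in each gap in shLacZ (x axis, log scale) and shRRN3 (y axis, log scale); gaps without a peak in a list are drawn at "no peak", spread slightly so that they can be seen. The dashed line marks equal scores as a guide only, because scores grow with depth and the depth is unknown. COMMD3-BMI1, at 131.29, stands to the right of the other 12 gaps with a peak in shLacZ only, which lie between 50.96 and 79.28.

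The highest shLacZ scores belonged to gaps with a peak in both lists. MRPS16-DNAJC9 (chr10:73247256-73248842, minus strand) came first with 377.36 in shLacZ and 273.67 in shRRN3, where DNAJC9 is a co-chaperone that binds histones and MRPS16 a protein of the mitochondrial ribosome. RPL17-C18orf32 followed with 298.54 and 405.34, RAB26-TRAF7 with 297.22 and 397.65, and CYB5R3-POLDIP3 with 276.83 and 593.77. In the RAB26-TRAF7 gap (chr16:2154166-2155697, plus strand) lie SNHG19 and the small nucleolar RNA gene SNORD60 on the other strand, and in the CYB5R3-POLDIP3 gap (chr22:42614963-42615729, minus strand) lies RNU12, the gene of the U12 small nuclear RNA of the minor spliceosome. Both lists had their peak over these genes, with midpoints 567 and 576 bp before the TRAF7 TSS and 554 and 642 bp before the POLDIP3 TSS. DPAGT1-H2AX, the pair of the DNA damage histone H2AX, had 260.68 and 290.64. RPL41-ESYT1 had 219.79 and 534.48, DDX5-POLG2, with an RNA helicase upstream, had 196.89 and 282.03, and S100A5-S100A6 had 195.64 and 1326.39.

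In S100A5-S100A6 (chr1:153536245-153537146, minus strand), the pair with the highest shRRN3 score, the peak lay mostly past the downstream TSS. It spanned 4232 bp, reached 82 bp into the gap and ended 4149 bp past the TSS of S100A6, which encodes a small calcium-binding protein. The second score, 1022.12, was at H1-4-H2BC5, where a shRRN3 peak of 1717 bp covered the whole gap of 1006 bp (chr6:26157116-26158121, plus strand), while shLacZ had 2 peaks of 97.03 and 126.2 in and beside it. Peaks that covered a whole gap numbered 8 in shLacZ and 52 in shRRN3.

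Among the 174 gaps with a peak in shRRN3 only, the highest scores were H3C1-H4C1 (527.94), MIEF1-ATF4 (368.28), APBB3-SRA1 (332.1), KHDC4-RIT1 (294.25), MIDN-CIRBP (271.38) and EIF4A1-CD68 (261.83). ATF4 is the main transcription factor of the integrated stress response, CIRBP a cold-induced RNA-binding protein and EIF4A1 a translation initiation helicase. At H3C1-H4C1 (chr6:26020959-26021648, plus strand) the shLacZ list had a peak of 93.01 at H3C1 that ended 863 bp before the H4C1 TSS, and the shRRN3 peak ran from 1426 bp before that TSS to 409 bp past it. At MIEF1-ATF4 (chr22:39518133-39519694, plus strand) the shLacZ peak of 228.0 began 739 bp past the ATF4 TSS, and the shRRN3 peak began 272 bp before it. The nearest shLacZ peak was thus 173 bp from the gap at H3C1-H4C1 and 740 bp from it at MIEF1-ATF4. At APBB3-SRA1 and EIF4A1-CD68 it was 1 and 14 bp away. At KHDC4-RIT1 and MIDN-CIRBP it was 21051 and 9787 bp away. Over all 174, however, 149 had no shLacZ peak at either start, 7 had one at the downstream TSS and 20 at the upstream TSS. Their median score was 84.5, against 154.7 for the shRRN3 peaks of gaps with a peak in both lists.

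**Figure D4:**
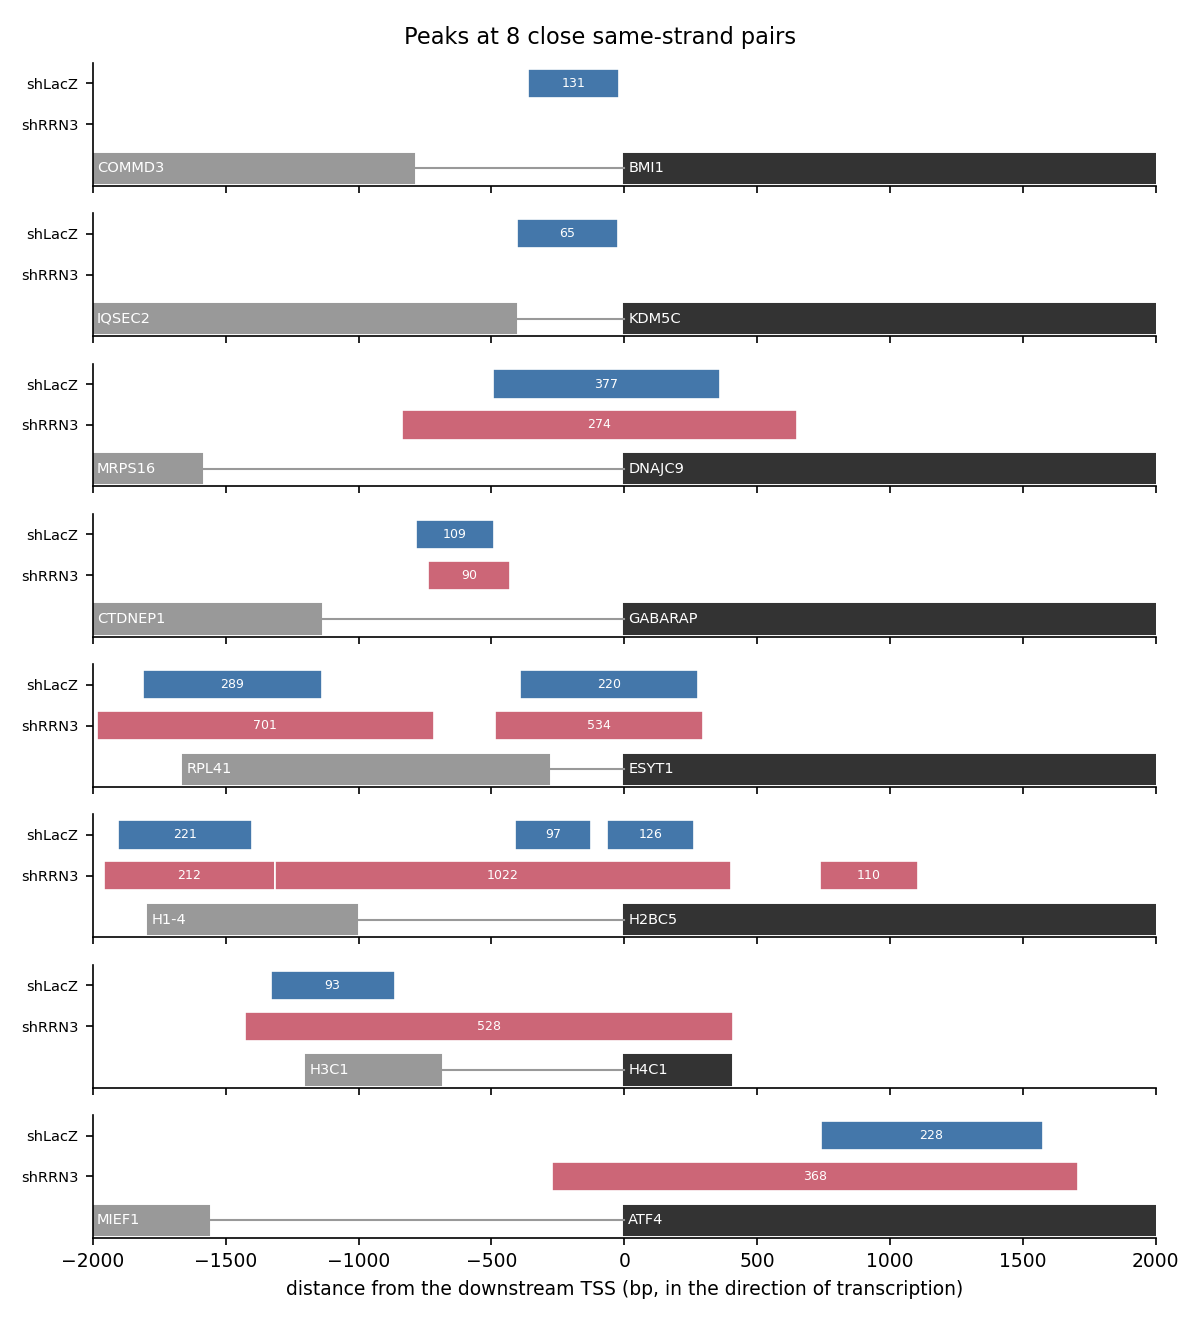
Peaks of shLacZ (upper boxes) and shRRN3 (lower boxes) at 8 pairs, by distance in bp from the downstream TSS in the direction of transcription. Numbers are rounded peak scores, grey and black boxes are the upstream and downstream genes and the thin line is the gap; peaks beyond 2000 bp are not drawn. COMMD3-BMI1 and IQSEC2-KDM5C had a gap peak in shLacZ only, and H3C1-H4C1 and MIEF1-ATF4 in shRRN3 only.

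Some gaps lie under an annotated readthrough gene on the same strand, as that of COMMD3-BMI1 does. Such a gene had to cover the whole gap and was not required to join both members of the pair. Of 127 bridged gaps, 16 had a peak in shLacZ (12.6%, 7.38% to 19.7%) and 35 in shRRN3 (27.6%, 20.0% to 36.2%). Among the 894 other gaps 62 (6.94%) and 204 (22.8%) had one. The difference was 5.66 points in shLacZ (0.617 to 12.7), and its interval included 0 when gaps near another start were left out or when gaps were limited to 1000 bp. In shRRN3 it was 4.74 points (-2.85 to 13.5). Bridged gaps were shorter, with a median of 725 bp against 952.5 bp. Their downstream TSS had a peak in 14.2% of pairs against 8.28% in shLacZ, a difference of 5.90 points (0.499 to 13.2). By list, 14 bridged gaps had a peak in both, 2 in shLacZ only (COMMD3-BMI1 and ZMYM6-TMEM35B), 21 in shRRN3 only and 90 in neither. The bridged gaps with a peak in both lists included TMX2-SELENOH (89.22 and 162.11), which holds a thioredoxin-related membrane protein and a selenoprotein, and H2AC7-H3C4 (69.51 and 248.85), named here after their values were seen.

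Other annotated genes in the gap were examined as well. In 108 gaps a gene other than the pair started inside, most often a long noncoding RNA gene. Of these, 10 had a peak in shLacZ (9.26%) and 41 in shRRN3 (38.0%), against 7.45% and 21.7% of the 913 gaps without such a start. The difference was 1.81 points in shLacZ (-2.75 to 8.93) and 16.3 points in shRRN3 (7.24 to 26.0). In 8 gaps the inner gene was a small RNA gene, and 3 of them had a peak in shLacZ and 5 in shRRN3. A start of another gene within 1 kb of the gap was annotated for 41.5% of gaps with a peak in both lists, 38.5% with a peak in shRRN3 only and 18.9% with a peak in neither. The 779 gaps with no such start had a peak in 6.16% in shLacZ and 18.6% in shRRN3.

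Base composition of the gap is given for the same classes. The median share of G or C was 56.2% over all gaps, 51.6% with a peak in both lists, 57.0% in shLacZ only, 56.3% in shRRN3 only and 56.7% in neither. The median ratio of observed to expected CpG, which is high in CpG islands, was 0.584, 0.639 and 0.609 for the classes with a peak and 0.399 for gaps without one. In the 200 bases before the downstream TSS, GGGCGG occurred in 55.7% of pairs against 47.0% of all protein-coding TSSs, CCAAT in 28.4% against 29.4% and TATAAA in 4.90% against 8.16%. GGGCGG was present in 56.9% of pairs with a peak in both lists, 67.2% in shRRN3 only and 52.8% in neither, and CCAAT in 41.5%, 32.2% and 26.8%. TATAAA was found in 7 of the 65 pairs with a peak in both lists, 6 of the 174 in shRRN3 only and 37 of the 769 in neither. Of the 13 pairs with a peak in shLacZ only, 9 held GGGCGG, 1 held CCAAT and 0 held TATAAA.

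Gap peaks are given last by gene family, to be read against 7.64% and 23.4% of all gaps. Cytosolic ribosomal protein genes, which are transcribed strongly in growing cells, took part in 14 pairs, of which 8 had a gap peak in shLacZ and 10 in shRRN3. All 8 shLacZ gaps had a peak in shRRN3 too, FANCE-RPL10A with scores of 116.96 and 180.77, RPL4-SNAPC5 with 109.99 and 226.58, ARL6IP1-RPS15A with 105.36 and 318.76, and FLT3LG-RPL13A with 121.03 and 217.49 among them. PIK3C2A-RPS13 had a gap peak in shRRN3 only, at 128.47.

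Clustered histone genes, whose messages mostly end in a stem-loop and carry no poly(A) tail, took part in 11 pairs. A gap peak was present in 5 in shLacZ and 8 in shRRN3. H2AC4-H3C2 had 127.69 and 213.45, and H4C13-H3C11 had 72.96 and 170.73. The gaps of H3C13-H2BC18 (59.46) and H2BC5-H2BC6 (92.25) had a peak in shRRN3 only. The annotated span of H2BC5 ends 13227 bp past its TSS, and the gap to H2BC6 follows that end. Neighbouring histone genes share a cluster and reads from near-identical copies may be placed in either, so these peaks are less certain than the rest.

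Families were taken by gene symbol. Mitochondrial ribosomal protein genes had 2 and 6 of 14. Oxidative phosphorylation genes had 1 and 4 of 9, among them ATP5F1B-BAZ2A (56.5 and 154.7). Genes whose symbol begins with PSM, the proteasome set, had 1 and 3 of 9. The only shLacZ gap of that set was RETREG3-PSMC3IP (61.48 and 174.32), and PSMC3IP is not a proteasome subunit. Zinc finger genes had 3 and 7 of 39, and solute carriers 1 and 9 of 38. HOX genes (4 pairs), clustered protocadherins (6), olfactory receptors (8) and keratins (3) had no gap peak in either list. COMMD genes took part in 2 pairs, and COMMD2-WWTR1 had no peak in its gap in either list. A pair could count for more than 1 family.

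**Figure D5:**
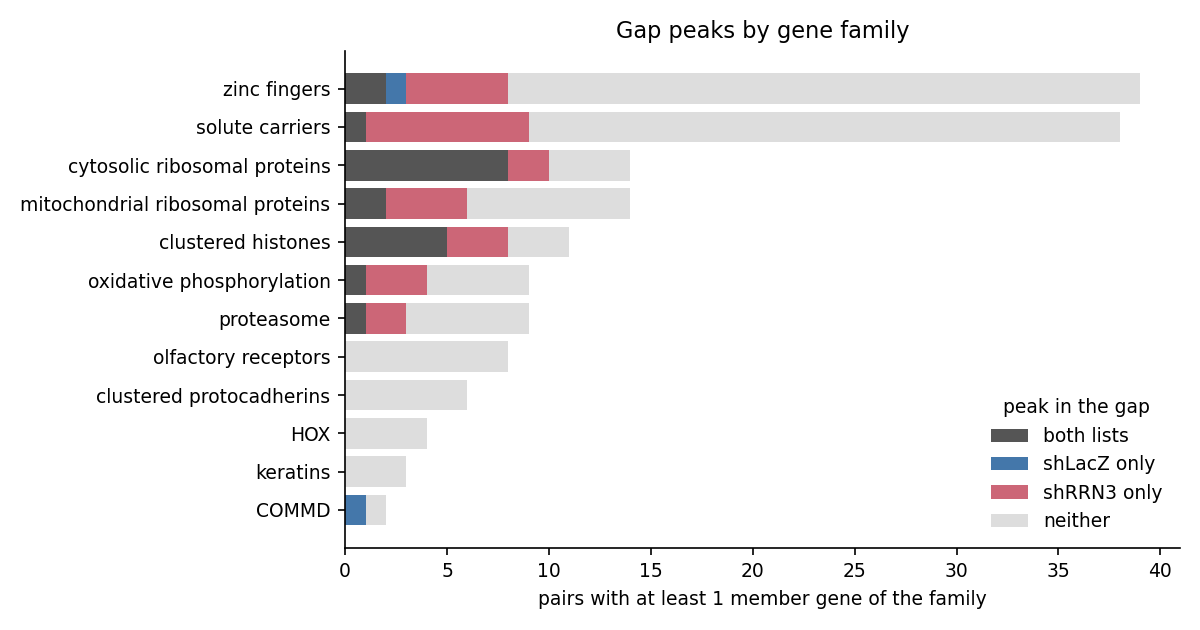
Number of same-strand pairs (x axis) with at least 1 gene of each family (y axis), split by where the gap had a peak. Families were taken by gene symbol, so the proteasome bar counts every PSM symbol. Ribosomal protein pairs had a gap peak in both lists in 8 of 14 and clustered histones in 5 of 11, while HOX, protocadherin, olfactory receptor and keratin pairs had none.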

How the data were processed

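Pol II ChIP-seq had been done with the ChIP-IT Express kit and sequenced on a BGISEQ-500 instrument, with 1 Pol II and 1 input library per hairpin. The authors called peaks in each library separately, and the peak names carry the name of MACS. The aligner, the MACS version and the use of the input are not given in the sources used here, and the build is hg38 per the submitters' processing notes. Each deposited list gives coordinates and a score per peak. The deposited score was used to rank or filter and is shown for both lists. The lists hold no read counts, so depth is unknown and sets no floor.

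Sequences outside chromosomes 1 to 22 and X (98 peaks in shLacZ and 42 in shRRN3) were left out. Genes came from GENCODE release 44, without 651 readthrough genes, which were used only to mark bridged gaps. Neighbours were genes with no other protein-coding gene in the gap, and the bounds of a gene were those of its whole annotated span.

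The members and lists were chosen with earlier results of these data known. The named pairs were COMMD3-BMI1, the 10 highest of the gaps with a peak in shLacZ only, the 8 highest-scoring per list, the 6 highest in shRRN3 only and, in gaps of 1000 bp or more, those with a midpoint nearer the upstream end (3 per list), and other pairs are named within families or as said in the text. Some items these choices select are not reported here. Alternatives were a stricter score, a shorter shRRN3 list, midpoint overlap, no other start nearby, shorter gaps, canonical transcripts, a 500 bp TSS window and gaps that another gene overlaps. Those for the ends of pairs were chosen after seeing the data. No test between hairpins was possible. Gap finding was tested on simulated data, and overlaps were checked against bedtools 2.31.1. Scripts ran in Python 3.11.15 with pandas 2.3.3, pysam 0.24.0, scipy 1.17.1, matplotlib 3.10.9 and numpy 2.4.6.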

Additional observations from a re-analysis of the deposited data

How the results depend on the processing

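Over 18 results and 116 alternative values, 76 lay within the interval of the reported value (for counts, within 1.5 times), 39 moved outside it and 1 reversed. The 76 include the shLacZ values under the shorter shRRN3 list, which that setting leaves unchanged by construction. With scores of at least 65.6 in both lists, the share of gaps with a peak was 4.80% in shLacZ and 17.7% in shRRN3, the difference 12.9 points, the gaps in shLacZ only 5, the upstream starts 4.60% and 20.2%, the downstream starts 5.68% and 20.4%, and the difference from convergent gaps 4.08 and 13.9 points. With 3916 shRRN3 peaks, the shRRN3 share was 10.6%, the difference 2.94 points, the shLacZ gap peaks kept 57.7%, the gaps in shLacZ only 33 and in shRRN3 only 63, the upstream and downstream starts 10.97% and 12.1%, and the differences from divergent and convergent gaps -9.04 and 7.999 points. With the peak midpoint inside the gap, the shares were 3.62% and 12.9%, the difference 9.30 points, the peaks kept 62.2%, the gaps in shRRN3 only 109, the difference from convergent gaps 3.19 and 10.6 points, that from divergent gaps reversed to 0.514 points in shLacZ and fell to -1.78 in shRRN3, and ends of pairs exceeded lone ends by 0.153 points in shRRN3. Without gaps near another start, 18.6% of gaps and 21.3% of downstream starts had a shRRN3 peak, the difference between lists was 12.5 points, 107 gaps had a peak in shRRN3 only and the shRRN3 difference from convergent gaps was 13.6 points. Canonical transcript bounds gave 900 gaps, shares of 9.78% and 27.8%, a difference of 18 points and differences from convergent gaps of 8.74 and 23.03 points. Gaps of up to 1000 bp held 96 with a peak in shRRN3 only, from 554 gaps. The causes were not tested, apart from the smaller number of peaks or gaps that these alternatives use by construction. The midpoint rule also weighs more on divergent gaps by construction, because they are shorter.

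No paired analysis was possible because each hairpin had 1 library. There were no replicates, the depth is unknown and the shRRN3 list is the longer one, so a gap without a peak is one without a peak past the authors' threshold. Gene ends are those of the annotation, and a peak does not tell initiating from terminating Pol II.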

Other observations

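Counts per chromosome are given beside the number of protein-coding genes, for chromosomes named after their values were seen. Over all gaps, 7.64% had a peak in shLacZ and 23.4% in shRRN3. Chromosome 19, with 1391 genes, held 153 pairs, of which 7 had a gap peak in shLacZ and 30 in shRRN3. Chromosome 1, with 2011 genes, held 123, with 15 and 35. Chromosome 10, which carries COMMD3-BMI1 and 712 genes, held 27 pairs. Of these, 8 had a gap peak in shLacZ and 8 in shRRN3, 5 of them the same gaps. It held 3 of the 13 gaps with a peak in shLacZ only. Chromosome 5, with 861 genes, held 33 pairs with 0 and 5. These counts are given as values, without a test. Of the gaps with a peak, 4 held 2 or more peaks in shLacZ and 10 in shRRN3.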
